A study of Mus musculus with 40 samples.

Results

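The 9 genes described here encode transcription factors that set the effector lineages of T lymphocytes: Tbx21, Eomes, Gata3, Rora, Ahr, Maf, Bcl6, Batf and Prdm1. They were chosen by name, with earlier results of these data known. Each gene was read from a single probe set, the one with the highest mean over the arrays of its platform among the probe sets annotated to that gene alone. The 9 genes had a probe set on both platforms, and stand among 18194 genes on the platform of the sorted cells and 17097 genes on the platform of the ligand experiment.

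The study profiled mouse regulatory T cells (Treg), CD4+ T cells that express Foxp3 and restrain other immune cells, on 40 expression arrays in 2 experiments. It asked what Treg express relative to conventional CD4+ T cells (Tconv), and how they respond to semaphorin-4a (Sema4a), a cell surface ligand of their receptor neuropilin-1 (Nrp1). The first experiment held 8 arrays from C57Bl/6 mice of the Foxp3GFP genotype, in which a fluorescent protein marks Foxp3-expressing cells. Resting Treg (n = 3) and activated Treg (n = 3) were sorted as CD4+ CD45RBlow GFP+ cells, and resting Tconv (n = 2) as CD4+ CD45RBhi GFP- cells. All 3 groups were kept in culture for 48 h after the sort, activated Treg with antibodies to CD3 and CD28 and both resting groups without a stimulus. The second experiment held 32 arrays of CD4+ CD45RBlow Foxp3-YFP+ Treg sorted from pooled lymphocytes of spleen and peripheral lymph nodes of C57Bl/6 mice. These Treg came from Foxp3-YFPiCre mice, called WT here, or from Nrp fl/fl x Foxp3-YFP-iCre mice, called KO here, in which the Cre expressed from the Foxp3 locus deletes Nrp1 in Foxp3-expressing cells, so that both genotypes carry the Cre. Cells of both genotypes received antibodies to CD3, fixed to the plate at 1 µg/mL, and to CD28, in solution at 2 µg/mL, with IL-2 at 100 U/mL and either immobilized Sema4a-Ig, a fusion of the ligand to an antibody tail, or mouse IgG1 as its control (10 µg/mL), with 8 arrays in each of the 4 groups. The labels give no age, and do not say whether replicates came from separate animals or cultures. The p-values thus rest on the spread among the samples given, and that spread could be technical in part.

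These factors bind DNA at the genes that define a lineage and often restrain the factors of the others. T-bet (from Tbx21) and its relative Eomes drive interferon-gamma production in type 1 helper and cytotoxic cells, Gata3 drives the type 2 program, and RORα (from Rora) and the ligand-activated aryl hydrocarbon receptor (Ahr) act in the type 17 program. Bcl6 and c-Maf (from Maf) serve follicular helper T cells, while Blimp-1 (from Prdm1), which represses Bcl6 and is repressed by it, and Batf, a partner of Irf4, serve terminally differentiated effector cells. Treg use the same factors: subsets that express one of them take up the trafficking receptors of the matching helper lineage, and Blimp-1, Batf, Gata3, RORα, c-Maf and Ahr are known in the activated, tissue-resident Treg often called effector Treg.

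In activated Treg, 5 of the members were higher than in Tconv, where 9.7% of all genes passed and 5.93% were higher, and 3 of the 5 had a window in the RefSeq promoter table of build GRCm38.p6: Rora, Prdm1 and Bcl6, the last with 2 annotated starts and a call that held in only 7 of 18 alternative settings. The 250 bases before each start are shown, 5′ to 3′ on the strand of the gene, so that the letters before the starts of genes that were higher together can be compared. Capitals mark the letters of the motifs searched on both strands.
Rora, chr9:68653536-68653785, plus strand: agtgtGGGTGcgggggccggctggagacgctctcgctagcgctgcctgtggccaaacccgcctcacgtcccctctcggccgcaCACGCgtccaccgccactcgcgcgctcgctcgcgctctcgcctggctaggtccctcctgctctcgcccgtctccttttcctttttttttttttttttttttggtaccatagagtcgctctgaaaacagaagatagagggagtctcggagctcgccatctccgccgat
Prdm1, chr10:44458749-44458998, minus strand: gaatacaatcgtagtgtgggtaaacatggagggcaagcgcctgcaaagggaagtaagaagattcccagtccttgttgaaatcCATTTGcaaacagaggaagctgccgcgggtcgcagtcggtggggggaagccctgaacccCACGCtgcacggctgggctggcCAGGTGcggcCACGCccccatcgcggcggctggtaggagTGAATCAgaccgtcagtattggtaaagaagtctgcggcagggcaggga
Bcl6, chr16:23988853-23989102, minus strand: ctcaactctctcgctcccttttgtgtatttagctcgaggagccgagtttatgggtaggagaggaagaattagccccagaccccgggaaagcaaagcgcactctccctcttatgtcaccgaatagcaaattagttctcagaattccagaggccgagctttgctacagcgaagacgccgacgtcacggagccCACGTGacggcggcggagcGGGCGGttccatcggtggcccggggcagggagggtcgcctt
Bcl6, chr16:23981284-23981533, minus strand: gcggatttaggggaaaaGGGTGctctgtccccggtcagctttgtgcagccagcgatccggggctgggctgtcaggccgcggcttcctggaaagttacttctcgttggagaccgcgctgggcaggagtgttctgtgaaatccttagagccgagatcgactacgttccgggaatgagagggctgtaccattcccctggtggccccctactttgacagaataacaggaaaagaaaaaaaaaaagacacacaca

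The Prdm1 window held a match to the AP-1 motif TGANTCA, which Batf and Jun proteins bind, at 48 to 42 bases before the start. This motif stood in 6.75% of the 32851 windows of this length. It also held the reverse of the xenobiotic response motif of Ahr (GCGTG) at 109 to 105 and at 77 to 73 bases, and the E-box motif CANNTG at 168 to 163 and at 87 to 82 bases. The Rora window held the Ahr motif at 167 to 163 bases and the reverse of the KLF motif CACCC at 245 to 241 bases. One Bcl6 window held an E-box at 60 to 55 bases and the SP motif GGGCGG at 41 to 36 bases, and the other held the KLF motif alone, at 233 to 229 bases. The Ahr motif stood in 28.2% of all windows, the E-box in 66.2%, the SP motif in 32.7% and the KLF motif in 52%. The GATA motif AGATAA (9.99% of windows) and the T-box motif AGGTGTGA (1.12%) were in none of the 4 printed windows, and no match overlapped another of a different kind. The table had windows for 7 members in all, without Maf and Ahr.

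Values were deposited as log2 signals. Foxp3, the Treg factor, had a mean log2 signal of 4.0 in Tconv, 10.44 in resting Treg and 10.81 in activated Treg, and the summed signal of the 5 Treg markers was 8.29 to 8.63 in Tconv against 14.2 to 14.6 in Treg, in log2. Bone marrow is named as the tissue of the sorted arrays. As a gauge of background, 109 genes for receptors of smell and pheromones and for hair proteins, which lymphocytes are not known to use, had a 95th percentile of 5.58 on this platform (116 genes and 4.63 on the ligand platform). The mean levels of Tbx21 (5.30) and Eomes (5.64) lay close to that line on the sorted arrays, above 90.8% and 95.4% of these reference genes, and those of the other 7 members lay above it. The 3′ to 5′ signal difference of Actb, a gauge of RNA integrity or of labelling, split the sorted arrays: 2 activated Treg and 1 resting Treg lay between 5.87 and 6.17, and the other 5 arrays between 1.24 and 2.67. Both Treg groups have arrays in both classes, and Tconv in the low class only. On the ligand platform Foxp3 was below the background line in all 4 groups, so that marker does not check the cell type there. The other Treg markers, Ikzf2, Ctla4, Il2ra and Nrp1, lay above it, with group means from 8.40 to 11.2. The mean of each Sema4a-Ig and IgG1 array pair was the same for all 16 pairs at every probe set (largest spread 6e-05). Only differences within pairs thus carry information, and the deletion of Nrp1 could not be checked. The Nrp1 signal was higher with Sema4a-Ig in 8 of 8 WT pairs (mean 0.37) and in 8 of 8 KO pairs (mean 0.34). Of all genes, 7.39% in WT and 2.64% in KO had their 8 pairs on one side. One WT Sema4a-Ig array, of replicate 2, has a WT title and a KO genotype label, and was placed by its title.

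Resting Treg and resting Tconv differed in 3 of the 9 factors, all higher in Treg: Maf, Ahr and Rora (limma, Benjamini-Hochberg adjusted p under 0.05 over all genes). Of all genes tested, 5.51% passed in either direction, 3.86% higher and 1.65% lower. The 1003 genes behind that share became 242 and 288 without Tconv replicate 1 or 2, while the same 3 members passed each time. The median log2 difference of the 9 members was 1.13, beside 0.0073 for all genes. In 8 of the 9 members the Treg and Tconv arrays did not overlap, which held for 42% of all genes in this comparison of 3 against 2 arrays. In these bulk samples a larger share of cells that express a factor and more RNA per cell cannot be told apart, and because Treg were sorted as CD45RBlow and Tconv as CD45RBhi, Treg identity and the naive or experienced state that CD45RB tracks cannot be told apart either.

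Maf, the gene of c-Maf, a driver of IL-10 and follicular helper genes, read 10.95, 10.36 and 10.85 in the resting Treg arrays and 6.05 and 5.88 in the Tconv arrays, in log2 signal. Every Treg array was far above both Tconv arrays. The difference was 4.75 ± 0.27 (SE; adjusted p = 6.2e-05), or 26.9-fold, and 4.63 within the low Actb class. Ahr, the receptor for aromatic ligands from diet, microbes and tryptophan, read 9.53, 10.16 and 10.28 in resting Treg against 5.91 and 5.97 in Tconv. Again no array of one group came near the other. Its difference was 4.05 ± 0.23 (SE; 95% interval 3.52 to 4.58, adjusted p = 5.85e-05), or 16.5-fold, with 4.28 in the low Actb class. Rora read 10.06, 9.97 and 10.22 against 6.47 and 6.44, with spreads within a group of 0.13 and 0.02 (SD) and a difference of 3.63 ± 0.15 (SE; adjusted p = 1.05e-05), or 12.4-fold. The low Actb class alone gave 3.64 for Rora. B cell markers moved in the same comparison: 3 of 7 passed, beside 5.51% of all genes, Cd79b (2.85), Ighm (0.77) and Cd79a (0.73). Their summed log2 level was 13.60 to 13.74 in resting Treg and 12.85 to 12.98 in Tconv. Cd79a, Ms4a1, Pax5 and Blk were below background in every group. Of 5 markers of group 2 innate lymphoid cells, Klrg1 passed (3.15), and the summed level was 8.05 to 9.13 against 6.89 to 6.92. The other 4, Il17rb, Arg1, Il5 and Il13, were below background in resting Treg, and all 5 were in Tconv. Klrg1 is also among the genes linked to Prdm1, Batf and Maf in effector Treg that are followed below. The part of B cells and innate lymphoid cells in the 3 factors was not tested. Maf, Ahr and Rora passed under each of the 18 alternative settings run for this comparison, which cover normalization, filters, blocks for Actb class and array code, and each array left out.

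Bcl6, the repressor that follicular helper and follicular regulatory T cells depend on, read 10.49, 9.80 and 9.91 in resting Treg and 8.84 and 9.04 in Tconv. The groups did not overlap, yet the difference of 1.13 ± 0.29 (SE; 95% interval 0.47 to 1.79) missed the threshold, with an adjusted p of 0.0636. It passed in 5 of the 18 alternatives, among them the Actb class as a block (0.91, adjusted p = 0.0141) and the fit without activated Treg replicate 3 (adjusted p = 0.0381). Prdm1, whose product Blimp-1 opposes Bcl6, read 8.08, 8.22 and 8.96 against 7.75 and 7.91, a difference of 0.58 ± 0.31 (adjusted p = 0.394). Batf, the AP-1 factor, read 7.59, 8.06 and 9.25 against 8.16 and 8.17. Its resting Treg arrays lay on both sides of Tconv, with a difference of 0.13 ± 0.54 (adjusted p = 0.946).

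None of the type 1 and type 2 factors passed in the fit over all 8 arrays. Gata3, the type 2 factor, read 8.74, 8.82 and 8.53 in resting Treg against 8.20 and 8.29 in Tconv, all 3 Treg arrays slightly higher, with a difference of 0.45 ± 0.30 (adjusted p = 0.522). Eomes, the T-bet relative of cytotoxic and memory cells, was the single member with lower values in resting Treg: 5.43, 4.85 and 5.09 against 5.68 and 5.89, a difference of -0.67 ± 0.26 (95% interval -1.26 to -0.07, adjusted p = 0.221). It passed with the Actb class as a block (-0.84, adjusted p = 0.0302), with the title code digits as a block (-0.79, adjusted p = 0.0263) and with array weights (-0.78, adjusted p = 0.0160). The arrays did not overlap, but all of the Treg values were at or below the background line. Klrd1, a receptor chain of NK cells, differed by -4.73 ± 0.43 between resting Treg and Tconv (adjusted p = 0.000545), while the killer cell markers Cd8a, Klrk1 and Ncr1 were below the background line in all 3 groups. The summed level of the 6 CD8 and NK markers was 8.22 to 8.81 in resting Treg and 12.1 in both Tconv arrays. The part of such cells in the Eomes values was not tested.

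Tbx21, the gene of T-bet, read 4.85, 5.0 and 7.46 in resting Treg against 4.36 and 4.34 in Tconv. A single array, resting Treg replicate 3, was far above the rest, and the other 2 lay below the background line. The difference was 1.42 ± 0.70 (95% interval -0.18 to 3.02, adjusted p = 0.348), and 0.57 without that array. Ifng (7.71) and Cxcr3 (12.05), both known targets of T-bet, were highest in the same array, and so were H2-Aa (10.6) and Cd74 (9.34), genes of MHC class II presentation, and Cd79b (7.75), a B cell gene. Lyz2, a myeloid gene, read 5.23 there and was highest in activated Treg replicate 1 (7.98). Klrd1 read 6.67 there, the lowest of the resting Treg values, and was highest in Tconv. The other listed T-bet targets are not given by array. The 8 dendritic cell and MHC class II markers, of which 0 passed, summed to 9.38 to 11.6 in resting Treg and 8.55 to 8.62 in Tconv, with Itgax and Siglech below background in every group. The part of those cells in the Tbx21 level of that array was not tested.

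**Figure D1:**
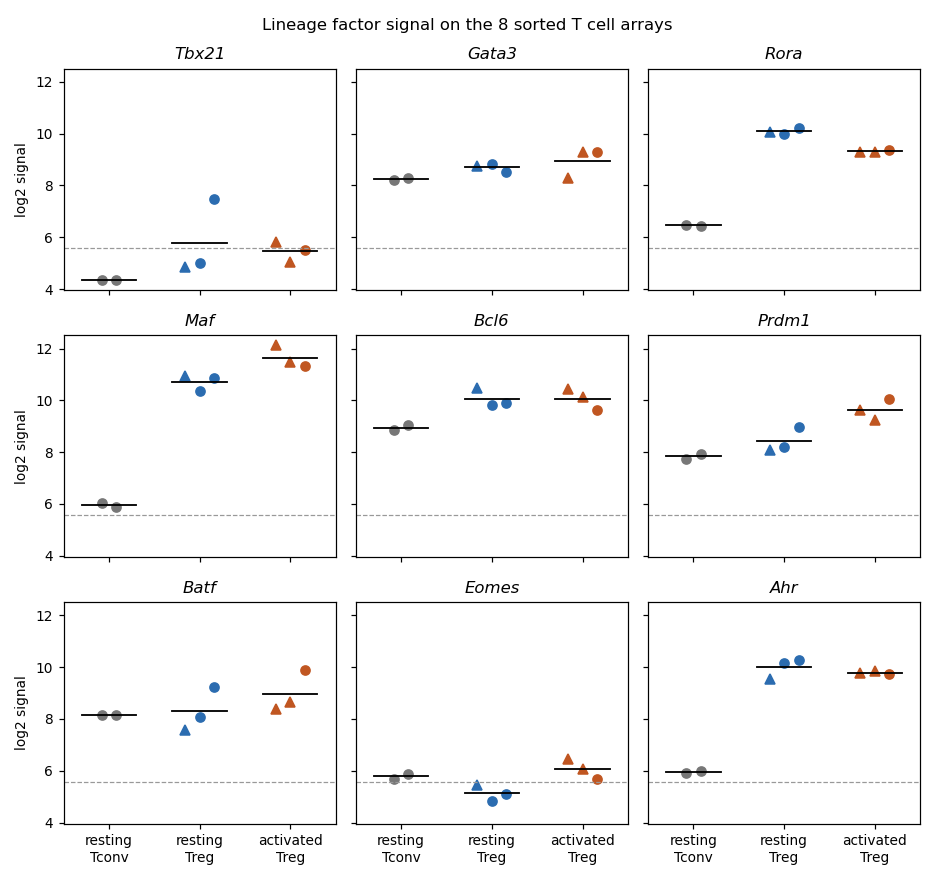
Log2 signal (vertical axis) of each of the 9 factors in every sorted array, by group on the horizontal axis: resting Tconv (n = 2), resting Treg (n = 3) and activated Treg (n = 3). Short lines are group means, triangles are arrays with a high Actb 3′ to 5′ difference and circles those with a low one, and the dashed line is the 95th percentile of the background reference genes (5.58). Maf, Ahr and Rora stand well above Tconv in all 6 Treg arrays, and 1 resting Treg array stands apart in Tbx21.

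The probe sets of Rora and Maf that lay above background gave the direction of the one used. On the sorted platform, Rora had 9 probe sets: besides the one used, 5 that lay above background gave differences of resting Treg over Tconv between 2.06 and 2.83, and the 3 others, with signals at background level, gave -0.21 to 0.17. Of the 5 other Maf probe sets, 3 gave 6.64, 4.10 and 3.69. Another read 2.42 ± 1.27 (SE; adjusted p = 0.426 in a fit over all probe sets), and the remaining one, with a mean of 4.39, gave 0.21. The second probe sets of Ahr (0.14), Bcl6 (0.21) and Eomes (-0.44) all had means under the background line, at 5.08, 5.29 and 4.46, so each of these 3 genes rests on 1 informative probe set.

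**Figure D2:**
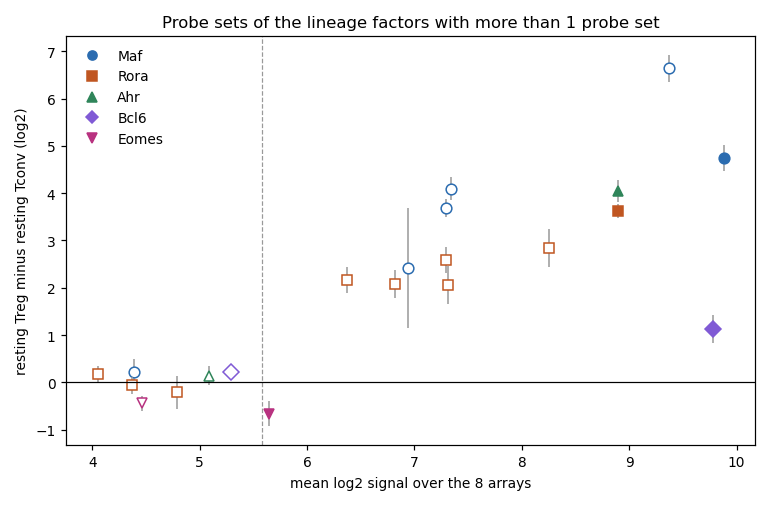
Log2 difference of resting Treg minus resting Tconv with its standard error (vertical axis) for every probe set of Maf, Rora, Ahr, Bcl6 and Eomes, against that probe set's mean log2 signal (horizontal axis). Filled points are the probe sets used for the gene, and the dashed line is the background line at 5.58. The probe sets near 0 lie to the left of the line or close to it, and those of Maf and Rora to its right are above 0.

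Between activated and resting Treg no member passed the test. Rora had lower values after activation, and Prdm1, Eomes and Maf higher ones, each short of the threshold (0 of 9 at an adjusted p under 0.05; 0.742% of all genes passed). At an unadjusted p under 0.05 there were 4 of 9 members (Rora, Prdm1, Eomes and Maf), where 11.5% of all genes passed. The 135 genes behind the 0.742% became 12 without activated Treg replicate 1, 67 without activated Treg replicate 3, 34 without resting Treg replicate 2 and 36 without either Tconv array. The same 4 were the members whose 3 activated and 3 resting arrays did not overlap, which held for 13% of all genes. This comparison shares its resting Treg arrays with the one above, and its activated arrays with the one that follows.

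Prdm1, the effector factor that anti-CD3 stimulation is known to induce, read 9.61, 9.25 and 10.06 in activated Treg, above each of the resting values of 8.08, 8.22 and 8.96. The difference was 1.22 ± 0.28 (SE; 95% interval 0.58 to 1.86, adjusted p = 0.113), or 2.33-fold, and it was 1.35 within the high and 1.47 within the low Actb class. With the Actb class as a block it passed (adjusted p = 0.0320), and without resting Treg replicate 3 it was 1.49 and passed (adjusted p = 0.0406). Batf read 8.39, 8.64 and 9.88, above the resting array of its own Actb class in each case on average (0.93 high, 1.23 low), but overlapping over all arrays, with a difference of 0.67 ± 0.49 (adjusted p = 0.689).

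Rora was lower in activated Treg, at 9.30, 9.30 and 9.36 against 10.06, 9.97 and 10.22. The arrays of each group were tightly spaced and apart from the other group, and the difference of -0.76 ± 0.13 (95% interval -1.07 to -0.46), or 1.70-fold, just missed the threshold at an adjusted p of 0.0517. It was -0.76 in the high and -0.74 in the low Actb class, and it passed with arrays centred on their medians (adjusted p = 0.0356), with array weights (0.0205) and with the Actb block (0.0372). Of the other Rora probe sets above background, 4 gave -0.86, -0.86, -0.74 and -0.68 and the fifth gave 0.28.

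Maf read 12.12, 11.48 and 11.35 in activated Treg, each above the highest resting value of 10.95. Its difference was 0.93 ± 0.25 (adjusted p = 0.160), with 0.86 and 0.74 within the Actb classes. Eomes read 6.44, 6.07 and 5.68 against 5.43, 4.85 and 5.09, a step from below the background line to just above it, of 0.94 ± 0.23 (adjusted p = 0.134), and of 0.82 and 0.72 within classes. Both passed in 1 of the 18 alternatives, that with array weights.

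The arrays of the other members overlapped. Ahr read 9.78, 9.85 and 9.72 in activated Treg, inside the resting range, with a difference of -0.21 ± 0.21 (adjusted p = 0.786). Bcl6 read 10.42, 10.13 and 9.62, and differed by -0.0092 ± 0.26 (95% interval -0.60 to 0.58). That interval is wide, and holds changes of either sign. Gata3 read 8.28, 9.28 and 9.28, a difference of 0.25 ± 0.27 (adjusted p = 0.808), and Tbx21 read 5.80, 5.04 and 5.52, a difference of -0.32 ± 0.62 (adjusted p = 0.904) that was 0.53 without resting Treg replicate 3.

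Activated Treg differed from resting Tconv in 5 of the 9 members, all higher: Maf, Ahr, Rora, Prdm1 and Bcl6. Of all genes 9.7% passed in this comparison, which joins Treg identity, sort gate and stimulation, 5.93% higher and 3.77% lower. The 1765 genes became 433 and 565 without Tconv replicate 1 or 2, and 1127 without activated Treg replicate 2. At an unadjusted p under 0.05 there were 6 of 9 members, with Gata3 as the sixth, and 21.6% of all genes. The difference was 5.68 ± 0.27 for Maf (adjusted p = 1.97e-05), 3.84 ± 0.23 for Ahr (5.94e-05) and 2.86 ± 0.15 for Rora (3.01e-05). These are 51.3-fold, 14.3-fold and 7.28-fold, and all 3 passed in 18 of 18 alternatives. Prdm1 was 1.80 ± 0.31 higher (adjusted p = 0.00912), or 3.49-fold, in activated Treg, and lost its call without Tconv replicate 1 (adjusted p = 0.106) or replicate 2 (0.0700). Bcl6 was 1.12 ± 0.29 higher (adjusted p = 0.0455), but passed in only 7 of 18 alternatives. It dropped to 0.69 with the Actb class as a block (adjusted p = 0.0541), and lost its call also with arrays centred on their medians (0.94, adjusted p = 0.0843), and without any of activated Treg replicates 1 and 2, resting Treg replicate 2 and both Tconv replicates (adjusted p between 0.0575 and 0.328). The other 4 had differences of 1.10 ± 0.70 for Tbx21, 0.81 ± 0.54 for Batf, 0.70 ± 0.30 for Gata3 and 0.28 ± 0.26 for Eomes, with adjusted p-values of 0.445, 0.482, 0.227 and 0.646. Tbx21 passed without resting Treg replicate 3, which enters only the estimate of the spread here (adjusted p = 0.0208), and Gata3 without activated Treg replicate 1 (1.03, adjusted p = 0.0140). Batf, whose only low-class activated array read 9.88, reached 1.62 with the Actb block and passed there (adjusted p = 0.0397).

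**Figure D3:**
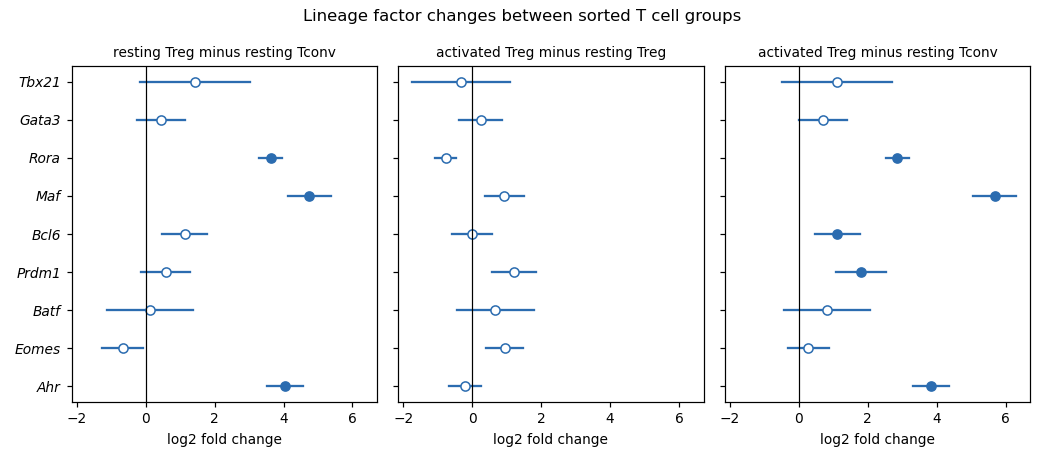
Log2 difference with its 95% interval (horizontal axis) of each factor in the 3 comparisons of sorted cells, which share arrays with each other. Filled points have an adjusted p under 0.05. Maf, Ahr and Rora lie between 2.86 and 5.68 in both comparisons with Tconv, and all points between activated and resting Treg are open.

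The genes that these factors are known to work with or to control were followed in fixed lists. The lists were chosen for function, with earlier results of these data known. Of 29 partner and regulator factors, 9 were higher and 1 lower in resting Treg than in Tconv, where 5.51% of all genes passed. The 9 include Foxp3 (6.44), the marker of the sort, whose difference the gate set in advance. The next largest were Bhlhe40 (3.41), a repressor of IL-10 in helper cells, and Nfil3 (3.39). Of the same 29, 2 rose on activation, where 0.742% of all genes passed: Irf4, the partner of Batf on composite DNA sites, by 3.73 ± 0.27 (adjusted p = 0.00333), and Ikzf3 by 1.67 ± 0.29 (adjusted p = 0.0495). Of 11 genes linked to Prdm1, Batf and Maf in effector Treg, 9 were higher in resting Treg than in Tconv, beside 5.51% of all genes. Their list median was 2.91 beside 0.0073, led by Ctla4 (6.20), Cd83 (5.71) and Itgae (5.71). Ctla4 is also 1 of the 5 Treg markers, so the sort gate bears on this count too. On activation 3 of the 11 rose, beside 0.742% of all genes: Il10 by 3.34 ± 0.47, Lag3 by 3.12 ± 0.25 and Tnfrsf9 by 2.90 ± 0.27. All 11 were above 0 there, with a median of 0.81 beside 0.0035. All 11 were higher in activated Treg than in Tconv, as were 5.93% of all genes.

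Of 16 targets of T-bet and Eomes, 3 were higher in resting Treg, again beside 5.51% of all genes, the chemokine receptor Cxcr3 (4.66), Ccl5 (3.62) and Il2rb (2.98), with a list median of 0.03. None of the 16 passed between activated and resting Treg. Of 10 genes linked to Bcl6 and Maf in follicular helper cells, 4 were higher in resting Treg, led by Pdcd1 (5.65), Cxcr5 (5.18) and Cd200 (2.83), and the list median was 0.16. The chemokine receptor Ccr6 (3.36) was the only one of 6 type 17 genes to pass, and the gut homing receptor Gpr15 (3.43) the only one of 6 Ahr targets. Ahrr, the repressor that active Ahr induces in a feedback loop, was 1.52 ± 0.19 higher in activated Treg than in Tconv (adjusted p = 0.00172). Of 8 Gata3 targets 0 passed between resting Treg and Tconv, and Ccr8 (1.73) and Ccr4 (1.62) were higher in activated Treg.

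For each member that passed, the genes whose levels ran closest to it over the 8 arrays were found by Pearson correlation, which here mainly follows the 3 groups and is given as a description. Rora ran closest to P2rx7 (r = 0.997), a receptor for extracellular ATP, and Cd80 (0.996). P2rx7 was 5.07 higher in resting Treg than in Tconv, and its difference between activated and resting Treg was -1.10 (adjusted p = 0.0548). Maf ran closest to Itgb8 (0.996), the integrin chain with which Treg activate TGF-beta, and Ncmap (0.995). Ahr ran closest to Ntn4 (0.999) and Ikzf4 (0.996), Prdm1 to Cpt2 (0.990) and Npas4 (0.989), and Bcl6 to Pard6g (0.989) and Fam174b (0.984).

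In WT Treg, none of the 9 factors passed the test between Sema4a-Ig and IgG1 (limma on 8 pair differences, adjusted p under 0.05), while 5.79% of all genes did, 2.91% higher and 2.88% lower. The 990 genes became 258 without WT replicate 3, 413 without WT replicate 7 and 538 without WT replicate 1, and 16 with the myeloid marker difference of each pair as a covariate. That last fit tests the effect for a pair with no myeloid difference, not the WT mean. At an unadjusted p under 0.05 there were 4 of 9, with 21.1% of all genes. These were Tbx21 and Eomes with negative and Maf and Bcl6 with positive mean differences. The median difference of the 9 was 0.043, beside -0.014 for all genes.

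Tbx21 was lower with Sema4a-Ig in 8 of 8 WT pairs, from -2.51 to -0.16 with a median of -0.48 (log2 difference). No WT pair was above 0, and 7.39% of all genes had their 8 pairs on one side. The mean was -0.70 ± 0.22 (SE; 95% interval -1.16 to -0.25, adjusted p = 0.0594), or 1.63-fold lower. Replicate 3 had the lowest value of the 8, and without it the mean was -0.44 (adjusted p = 0.222). Without KO replicate 3, which shares the estimate of the spread, the WT mean passed (adjusted p = 0.0294). In KO Treg, 7 of 8 pairs were lower, where 13% of all genes had at least 7 on one side, and the values ran from -2.08 to 0.22 with a median of -0.39 and a mean of -0.66 ± 0.22 (95% interval -1.11 to -0.20, adjusted p = 0.383). Again KO replicate 3 was lowest, and without it the mean was -0.46. The effect in KO minus that in WT was 0.044 ± 0.31 (95% interval -0.60 to 0.69, adjusted p = 0.994), an interval that leaves room for a difference as large as the effect itself.

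Eomes, the second T-box factor, had WT differences from -1.34 to 0.16 with a median of -0.19, a mean of -0.34 ± 0.15 (adjusted p = 0.180) and 4 of 8 pairs below 0. Its lowest pair was replicate 3 also, and without it the mean was -0.20. In KO its differences ran from -1.08 to 0.30 (mean -0.23 ± 0.15, adjusted p = 0.588), with 6 of 8 pairs below 0, and the mean without replicate 3 was -0.11. The other Eomes probe set gave -0.49 ± 0.15 in WT (adjusted p = 0.0589) and -0.11 in KO.

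Maf was higher with Sema4a-Ig in 7 of 8 WT pairs, from -0.10 to 0.62 with a median of 0.21. At least 7 of 8 pairs lay on one side in 22.1% of all genes. Its mean was 0.27 ± 0.08 (SE; 95% interval 0.09 to 0.44, adjusted p = 0.0632), or 1.2-fold, and it passed without WT replicate 5 (adjusted p = 0.0335). In KO Treg the Maf differences straddled 0, from -0.38 to 0.12, with 4 of 8 above it and a mean of -0.039 ± 0.08 (adjusted p = 0.896). The difference between genotypes was -0.30 ± 0.12 (95% interval -0.55 to -0.06). It was the one member with an unadjusted p under 0.05 for that interaction, where 5.94% of all genes had one and 0% passed after adjustment, and its adjusted p was 0.791. Myeloid markers moved in the same WT pairs: 13 of 15 had means above 0 and 3 passed, Lyz2 (0.81), Ctss (0.37) and Tyrobp (0.39), and the summed level was 10.2 to 10.6 with IgG1 and 10.62 to 10.98 with Sema4a-Ig. In KO it was 10.4 to 10.6 and 10.6 to 10.8, while 6 of the 15 markers had means above 0 and 0 passed. Of the 15 markers, 8 were under the background line in all groups, among them Itgam, Csf1r, Cd14 and Adgre1. With the pair's myeloid difference as a covariate that was not centred, the WT value is that fitted for a pair with no myeloid difference. It was 0.16 for Maf (adjusted p = 0.537) and -0.53 for Tbx21 (adjusted p = 0.463). The median myeloid difference was 0.22 in the WT pairs and -0.022 in the KO pairs. Over all 16 pairs, the Pearson r with the myeloid difference was 0.63 for Maf and -0.23 for Tbx21.

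Bcl6, the follicular helper repressor, had pair differences that were widely spread in WT and close together in KO, a difference in spread that was not tested. In WT the pair differences ran from -0.48 to 1.21, with 5 of 8 above 0 and a mean of 0.34 ± 0.59 (SD, n = 8; adjusted p = 0.141 with limma), or 0.21 without replicate 3, the highest pair. In KO the 8 pairs all lay between 0.17 and 0.39, a mean of 0.27 ± 0.08 (SD, n = 8; adjusted p = 0.486 with limma, which draws 1 spread for each gene from both genotypes). Of all genes, 2.64% had 8 of 8 KO pairs on one side, and 0% passed the adjusted test in KO, with 10.5% at an unadjusted p under 0.05. The difference between genotypes was -0.067 ± 0.19 for Bcl6. Its other probe set, of similar mean signal, gave 0.10 in WT and 0.05 in KO. The mean of the probe set used lay above 98.3% of the background reference genes, and that of the other above 97.4%. Both means were thus close to the background line of this platform, at 4.63.

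Prdm1 differences ran from -0.98 to 0.46 in WT (4 of 8 above 0, mean -0.062 ± 0.12) and from -0.86 to 0.06 in KO (1 of 8 above 0, mean -0.20 ± 0.12, or -0.10 without replicate 3). Batf differences had the same wide span in both genotypes, from -0.79 to 0.98 in WT and from -0.57 to 0.87 in KO, with means of 0.088 ± 0.15 and -0.014 ± 0.15. Rora had a WT mean of 0.11 ± 0.09, with replicate 1 highest at 0.65 and a mean of 0.029 without it. Its median pair was -0.04, and 5 of 8 pairs were below 0. In KO its mean was 0.0088.

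Gata3 and Ahr, factors of the type 2 and type 17 programs, had small differences in both genotypes. Gata3 differences ran from -0.27 to 0.35 in WT and from -0.25 to 0.18 in KO, with means of 0.043 and -0.014. Ahr differences ran from -0.24 to 0.24 and from -0.16 to 0.25. The WT mean of Ahr was -0.016 ± 0.07, with a 95% interval from -0.16 to 0.13. Ahr had the narrowest bound around 0 of the 9 factors in WT. Over the genotype difference, the adjusted p-values of the 9 members ranged up to 0.994 and none was under 0.05.

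**Figure D4:**
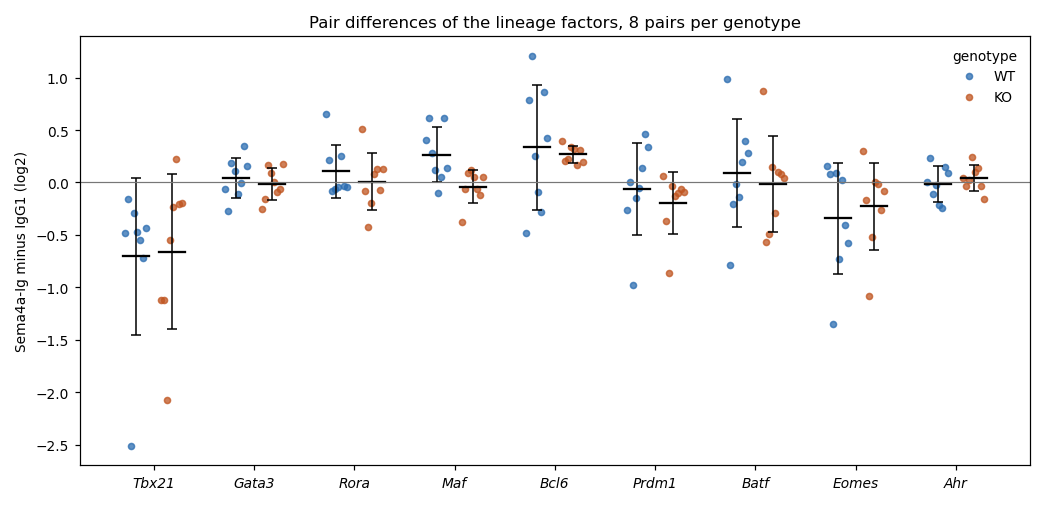
Log2 difference of Sema4a-Ig minus IgG1 (vertical axis) in each of 8 WT (blue) and 8 KO (orange) pairs for the 9 factors, with mean and SD as bars. All 8 WT pairs lie below 0 in Tbx21, and all 8 KO pairs lie above 0 in Bcl6, between 0.17 and 0.39.

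Because Bcl6 and Blimp-1 repress each other, and T-bet and Gata3 do so as well, the balance within each couple was compared in the same pairs with exact sign-flip permutation tests, 6 in all, whose smallest possible p with 8 pairs is 0.0078. Tbx21 minus Gata3 fell by 0.75 ± 0.85 with Sema4a-Ig in WT (SD, n = 8; lower in 7 of 8 pairs; exact p = 0.0156, adjusted 0.0469). In KO the mean was -0.64 ± 0.77 (SD, n = 8; lower in 7 of 8; exact p = 0.0312, adjusted 0.0625), and the effect in KO minus that in WT was 0.10 (permutation p = 0.788). Gata3 itself had means of 0.043 and -0.014 in these pairs. The WT call was lost, with means between -0.80 and -0.47, on leaving out any pair but WT replicate 2 (exact p = 0.0312 in each of those 7 cases). The KO value passed without KO replicate 6 (-0.78). Bcl6 minus Prdm1 rose in KO, by 0.47 ± 0.27 (SD, n = 8; higher in 8 of 8 pairs; exact p = 0.0078, the smallest possible; adjusted 0.0469), and had a mean of 0.40 in WT with 5 of 8 pairs above 0 (exact p = 0.203, adjusted 0.305) and a mean of 0.14 without WT replicate 3. The genotype difference was 0.07 (permutation p = 0.855). With the other Bcl6 probe set the KO mean was 0.25 (exact p = 0.25). Between activated and resting Treg the same balance was -1.23, with groups that did not overlap and an exact p of 0.1, the smallest that 3 against 3 arrays can give. It was 0.54 between resting Treg and Tconv, where groups overlapped (exact p = 0.5), and -0.68 between activated Treg and Tconv, where they did not (exact p = 0.3). The sorted groups overlapped in Tbx21 minus Gata3 in all 3 comparisons, at 0.97 between resting Treg and Tconv, -0.57 between activated and resting Treg and 0.40 between activated Treg and Tconv (exact p = 0.6, 0.7 and 0.8).

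The same lists were read in the WT pairs, where 5.79% of all genes passed. Of 16 T-bet and Eomes targets, 5 fell and 2 rose, with a list median of -0.13 beside -0.014 for all genes. The chemokines Xcl1 and Ccl3 fell by 0.93 ± 0.17 and 0.86 ± 0.19, and Ifng, the signature cytokine of T-bet, fell by 0.85 ± 0.22 (adjusted p = 0.00326, 0.0119 and 0.0290). Of 7 CD8 and NK markers, 6 had WT means below 0 and Nkg7 passed (-0.52, adjusted p = 0.0335). Their summed log2 level was 8.63 to 9.26 with IgG1 and 8.22 to 8.82 with Sema4a-Ig in WT, and 8.66 to 9.29 and 8.17 to 8.79 in KO, with Klrd1, Klrk1, Ncr1 and Klrb1c below background in all 4 groups. The part of such cells in these genes and in Tbx21 was not tested. Of 28 partner and regulator factors, 5 fell and 2 rose, led by Irf8 (-0.92 ± 0.16), Zbtb32 (-0.59 ± 0.11) and Irf4 (-0.50 ± 0.15), the partner of Batf. The Gata3 target Ccr8 (-0.91 ± 0.16) and the type 17 chemokine Ccl20 (-0.44 ± 0.11) were the only members of their lists to pass, and both fell. The Ahr target Nqo1 rose by 0.45 ± 0.13, also alone in its list. Of 10 follicular helper genes, 3 rose, Slamf6 (0.50), Il6ra (0.50) and Il6st (0.44), and 2 fell. Of 11 effector Treg genes, Nt5e rose by 0.53 ± 0.08 and Lag3 fell by 0.54 ± 0.14. With the myeloid covariate, fitted for a pair with no myeloid difference, the 16 genes that passed in WT were all higher. None of these falls passed there. In KO, and in the difference between genotypes, 0 genes of these lists passed, as for all genes in the limma fit. Some of the named genes that fell in WT had KO means on the same side of 0. These were Ifng (-0.93 ± 0.22), Xcl1 (-0.66 ± 0.17), Ccl3 (-0.54 ± 0.19), Ccr8 (-0.50 ± 0.16), Irf8 (-0.46 ± 0.16), Zbtb32 (-0.46 ± 0.11) and Irf4 (-0.38 ± 0.15), with adjusted p-values from 0.376 to 0.424. The KO mean of Ccl20 was -0.050 ± 0.11. KO means of Nkg7, Lag3 and the genes that rose in WT are not given here.

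**Figure D5:**
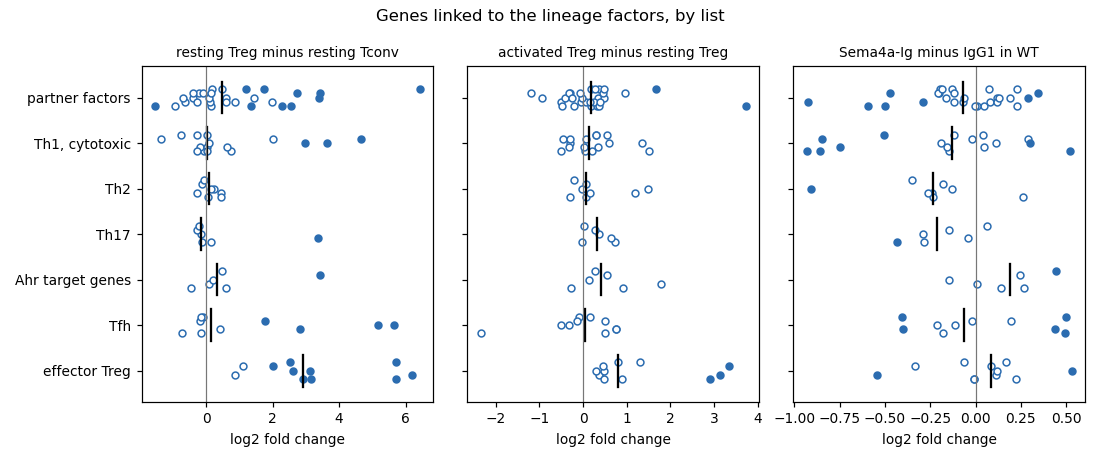
Log2 difference (horizontal axis, scaled separately in each panel) of every measured gene of 7 lists of partners, targets and linked genes, for resting Treg minus Tconv, activated minus resting Treg, and Sema4a-Ig minus IgG1 in WT. Filled points have an adjusted p under 0.05 and bars are list medians. The effector Treg list has medians of 2.91 and 0.81 in the first 2 comparisons, and 5 of the 16 T-bet and Eomes targets are filled below 0 in the third.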

How the data were processed

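Arrays of 2 Affymetrix mouse platforms were analysed from the deposited log2 signals, normalized by the authors with RMA in Partek 6.6, per the submitters' processing notes. The step that gave all 16 pairs equal means is not described in these sources. Probe sets with 1 gene symbol in the platform annotation were used (34958 of 45101 and 28898 of 45141; 932 and 551 have several, 9211 and 15692 none), the brightest per gene. Sorted cells were fitted with limma 3.58.1 in R 4.3.3 over all 8 arrays and 3 groups (5 residual degrees of freedom), with Benjamini-Hochberg adjustment over all genes and a threshold of 0.05. In the ligand experiment, each Sema4a-Ig array was paired with the IgG1 array of the neighbouring title code (16 of 16), and limma was fitted to the 16 pair differences with 1 mean per genotype. Same-numbered arrays were not otherwise paired. The number of arrays limits the precision. The scripts were tested on simulated data: between activated and resting Treg, 32.5% of genes changed by 1 and 81.5% of those changed by 2 on the log2 scale were called. In WT pairs, 14.5% at 0.3, 77% at 0.5 and 99.5% at 1 were called, and for KO minus WT 0% at 0.3, 25.5% at 0.5 and 96.5% at 1. Named genes are the 9 members, up to 3 called genes with the largest change per list, the 2 genes nearest to each called member, and Nrp1, Foxp3 and Actb. Markers behind a member's value are named too, after their values were seen. The members and lists were chosen with earlier results of these data known. Alternatives changed normalization, filters, probe sets, weights, blocks and covariates, and left out each array or pair. No array was dropped.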

Additional observations from a re-analysis of the deposited data

Results flagged for a closer look

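Outlying pairs were looked for in 18 groups of 8 pair differences (9 factors in 2 genotypes), where chance alone marks about 1 in 20 groups. There were 3. The Tbx21 difference of WT replicate 3 was -2.51, the lowest of its 8 pairs by a wide gap. The Rora difference of WT replicate 1 was 0.65, the highest of its 8. The Prdm1 difference of KO replicate 3 was -0.86, the lowest of its 8.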

How the results depend on the processing

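The sorted groups hold 2 or 3 arrays, and Tbx21 and Eomes lay near background there. Of 1179 values of single factors under other settings, 1079 kept their direction and side of the threshold, 39 passed only under another setting and 13 lost a call. Another 48 had the opposite sign, 0 of them a called value. The causes of these changes were not tested.

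The number of the 9 factors called between resting Treg and Tconv was 5 with array weights, with the Actb class as a block and with the leading digits of the title codes as a block, against 3. Between activated and resting Treg it was 1 with arrays centred on their medians, 1 with quantile normalization, 4 with array weights and 2 with the Actb block, against 0, and leaving out single arrays gave 0 to 1. Between activated Treg and Tconv, leaving out single arrays gave 3 to 6 against 5, with 3 without either Tconv array. For Sema4a-Ig in WT it was 1 with pair differences centred on their median, 1 with quantile normalization, 2 with a mean signal of at least 5, 1 with a trended and robust variance, 1 with array weights and 1 with the Actb covariate, against 0, and leaving out single pairs gave 0 to 1.

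The pairing is part of the design here. Without the replicate block of pairs, 4 factors were called in WT, 1 in KO and 1 for KO minus WT, but that fit ignores the fixed pair means. Blocking the 12 pairs whose codes neighbour across genotypes gave a KO minus WT difference of 0.32 for Tbx21, and the same 12 pairs without that block, a setting chosen after seeing the data, gave 0.32 too, with 0 factors called in both. Bcl6 minus Prdm1 in KO was 0.25 with the other Bcl6 probe set. Leaving out single pairs, Bcl6 minus Prdm1 ran from 0.14 to 0.51 in WT, and Tbx21 minus Gata3 ran from -0.87 to -0.47 in WT and from -0.78 to -0.42 in KO.

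Centring the arrays moved the split of all genes called higher and lower from 703 and 300 to 600 and 406 between resting Treg and Tconv, from 95 and 40 to 87 and 59 between activated and resting Treg, and from 1079 and 686 to 863 and 1131 between activated Treg and Tconv. In WT pairs, centring moved it from 498 and 492 to 564 and 402.

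Signs turned for small differences. On leaving out single arrays, Batf ran from -0.34 to 0.49 between resting Treg and Tconv, and Tbx21 from -0.77 to 0.53 and Bcl6 from -0.19 to 0.21 between activated and resting Treg. There Tbx21 was 0.037 with code digits as a block, and Bcl6 0.090 with quantile normalization and 0.16 with array weights. Between activated Treg and Tconv, Eomes was -0.068 with the Actb block, -0.055 with code digits and -0.10 in the low Actb class alone. For Sema4a-Ig in WT, leaving out single pairs gave -0.00072 to 0.088 for Gata3, -0.14 to 0.070 for Prdm1, -0.040 to 0.21 for Batf and -0.052 to 0.017 for Ahr. In KO it gave -0.041 to 0.020 for Gata3, -0.062 to 0.070 for Rora, -0.062 to 0.0090 for Maf and -0.14 to 0.066 for Batf. For KO minus WT it gave -0.21 to 0.25 for Tbx21, -0.18 to 0.058 for Bcl6, -0.23 to 0.026 for Batf and -0.031 to 0.23 for Eomes. Centred pair differences gave 0.0019 for Ahr in WT, and in KO 0.0022 for Gata3 and 0.0021 for Batf. Quantile normalization gave 0.0057 for Prdm1 and 0.050 for Ahr in WT, and in KO 0.031 for Gata3, 0.0018 for Maf and 0.038 for Batf. Array weights gave 0.084 for Prdm1 in WT and 0.0029 for Batf in KO. With the myeloid covariate, Gata3 was -0.0071 in WT for a pair with no myeloid difference, and KO minus WT was -0.13 for Tbx21, 0.13 for Bcl6 and -0.033 for Eomes.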

Other observations

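The pairs numbered 3 in WT and KO, whose title codes neighbour each other, held the lowest Sema4a-Ig differences of their genotype for 4 factors. Tbx21 read -2.51 and -2.08, Eomes -1.34 and -1.08, Prdm1 -0.98 and -0.86, and Rora -0.083 and -0.42, WT first. The WT value of Rora was close to that of WT replicate 4 (-0.063). The pairs numbered 1, whose codes are not neighbours, held the highest differences of Batf (0.98 and 0.87), Rora (0.65 and 0.51) and Eomes (0.16 and 0.30). How many of all genes have their lowest or highest pair at these numbers was not counted, so neither pattern can be called particular to these factors. Over all genes, the number called in WT fell from 990 to 258 without WT replicate 3. The labels do not say what neighbouring codes share.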
